A study of Mus musculus with 4 samples.

Results

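The E2F and Rb family regulators were examined in mouse embryonic stem (ES) cells after knockdown of Atad2. The set holds 10 genes, chosen by name as members of these families and not by their values. Earlier results of these data were known when the set was chosen. They are the transcription factor genes E2f1, E2f2, E2f3, E2f4, E2f5 and E2f6, the gene for their DNA-binding partner Tfdp1, and the genes for the pocket proteins Rb1, Rbl1 (p107) and Rbl2 (p130). They are 10 of the 21480 genes that were given a level, and all 10 passed the filter for testing, a mean of at least 1 FPKM, which 10845 genes passed. RNA-seq was carried out on 46C ES cells, a mouse ES cell line, in which the endogenous Atad2 carries a TAP tag introduced by knock-in, and the study continued with 1 clone of that knock-in. The cells were grown with LIF and serum on gelatin. In the control condition (si-ctrl, 2 libraries) the cells received an inactive, scrambled siRNA, and in the knockdown condition (si-Atad2, 2 libraries) an active siRNA against Atad2. All 4 libraries therefore carry the tagged Atad2 and no library comes from untransfected cells. The study used a pair of active siRNAs, and the labels do not say which was used for which si-Atad2 library, nor is the time after transfection given in the sources used here. The labels call libraries 1 and 2 of a condition replicates, whereas a figure legend of the study says that sequencing was repeated on every RNA sample. Libraries 1 and 2 may therefore be the same RNA sequenced again, and no source used here states separate transfections. The p-values measure only the spread between these libraries, and in that case it is technical and covers no biological variation.

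E2F proteins bind DNA as dimers with a DP protein, such as that encoded by Tfdp1, and control genes needed for DNA replication and cell division. Pocket proteins bind E2F and hold these genes down, until cyclin D with Cdk4 or Cdk6 and cyclin E with Cdk2 phosphorylate the pocket protein and release E2F. E2f1, E2f2 and E2f3 are known mainly as activators, E2f4 and E2f5 as factors that repress together with Rbl1 and Rbl2, and E2f6 as a repressor that acts without pocket proteins, in a complex with Polycomb proteins, Mga and Max. ES cells are known for a short G1 phase in which Rb is kept phosphorylated. ATAD2 has been described in tumour cells as a coactivator of E2F. The study also reports that an E2F-regulated gene category went down on stable Atad2 knockdown, in ES cells differentiating without LIF. That result came from an shRNA and microarrays, unlike the siRNA and RNA-seq here. The comparison here asks whether E2F and Rb family messages and those of their targets differ once Atad2 is lowered in ES cells with LIF.

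Some genes of the E2F and Rb families, such as E2f1 and Rbl1, are themselves known E2F targets. The letters of an E2F site can be read in the promoters of several members. Promoters were taken from RefSeq (GRCm38.p6), from 250 bases before to 50 bases after the transcription start, for the 7 members with an entry. They were searched on both strands for the 4 words TTTCCCGC, TTTCGCGC, TTTGCCGC and TTTGGCGC. At least 1 match was present for 4 of the 7 genes (57.1%), which were E2f2, E2f3, Rbl1 and Tfdp1, against 704 of 27025 genes overall (2.6%). Counted over single promoters the share was 5 of 10 for the members, with 1 Tfdp1 site read in both of its overlapping promoters, and 744 of 32851 (2.26%) for all promoters of the same length. A known set of E2F target genes of the G1/S transition held a match for 18 of 38 genes (47.4%). With the first letter of each word left out, the same 4 of 7 members held a match. So did 2936 of all 27025 genes (10.9%) and 27 of the 38 G1/S genes (71.1%). The promoters compared were not matched for base composition. No match was found in the windows of E2f1, E2f6 and Rbl2, and E2f4, E2f5 and Rb1 had no entry. The E2f1 window (chr2:154569377-154569676, minus strand) stops short of the start of the gene in GENCODE, at 154569892. The bases before that start were not searched. The match of E2f2 lay after its start, and the second of the 2 matches of the replication gene Rfc3, which is described further on, began at the start. The stretches around the matches of the other 3 members, and around the first match of Rfc3, are printed from 5′ to 3′ along the gene with the matching word in capitals. Rfc3 is printed because it was the only gene of the lists called in these data, and a link between its match and its level was not tested. A match is a description of the letters and was not tested as a site.
Rbl1, chr2:157204535-157204572, minus strand: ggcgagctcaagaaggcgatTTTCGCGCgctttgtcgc
E2f3, chr13:29986064-29986094, minus strand: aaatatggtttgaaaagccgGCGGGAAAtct
Tfdp1, chr8:13338688-13338735, plus strand: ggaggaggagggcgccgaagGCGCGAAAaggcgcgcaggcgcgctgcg
Rfc3, chr5:151651209-151651238, minus strand: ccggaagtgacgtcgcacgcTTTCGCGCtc
In Rbl1 and Rfc3 the word TTTCGCGC stands on the strand of the gene. In Tfdp1 the same word is on the opposite strand, and so is the word TTTCCCGC in E2f3. The Rbl1 match lies 18 to 11 bases before the start, that of E2f3 11 to 4, that of Tfdp1 43 to 36 before the first of its starts, and the first match of Rfc3 10 to 3 bases before it.

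The families were expressed at levels that spanned more than an order of magnitude. Levels are given in FPKM (fragments normalised for length and depth), as the authors' Cuffdiff runs gave them for each transcript, and were summed here over the transcripts of a gene, so that they can be compared between genes. In si-ctrl, E2f4 was the highest (mean of the 2 libraries 59.0 FPKM), followed by Tfdp1 (33.5), E2f1 (29.2), E2f5 (14.6), E2f3 (12.8), Rb1 (12.5), E2f6 (10.8), E2f2 (4.51), Rbl1 (4.48) and Rbl2 (3.86). E2f3 and Rb1 overlapped between the si-ctrl libraries, as did E2f2 and Rbl1, and these neighbours did not differ beyond their spread. All other neighbours in this order were apart in both libraries. The level of Rb1 leaves out 7 transcripts of its locus that could not be given to a gene. With them it would be 16.9 and 17.1 FPKM in si-ctrl 1 and 2, above E2f5. Among all genes tested, E2f4 stood above 91.5% of genes by its mean level and Rbl2 above 26.6%.

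**Figure D1:**
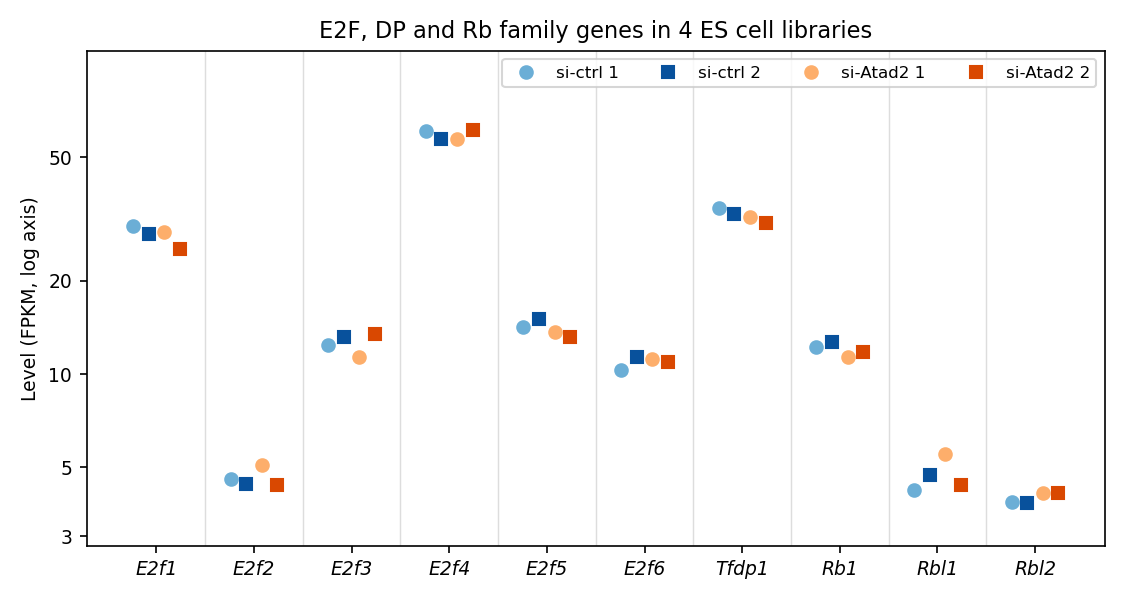
Level of each member in each library, in FPKM on a log axis. Circles are replicate 1 and squares replicate 2, blue for si-ctrl and orange for si-Atad2. E2f4 lies near 60 FPKM and Rbl2 near 4 FPKM, and within each gene the 4 libraries lie close together.

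The make-up of the families differed little between libraries. E2f4 made up 39.1% to 42.2% of the summed FPKM of E2f1 to E2f8 in the 4 libraries, E2f1 17.5% to 20.1%, and E2f2 3.02% to 3.57%. Of the pocket protein genes, Rb1 made up 54.0% to 60.1% of the sum, Rbl1 20.8% to 26.3% and Rbl2 18.0% to 20.4%. The share of Rb1 would be larger with the unassigned transcripts of its locus. The lowest share of Rb1 and the highest share of Rbl1 both came from si-Atad2 1, while si-Atad2 2 was at 58.0% and 21.6%. The summed E2F level was 149.2 and 147 FPKM in si-ctrl 1 and 2 and 143 and 145 FPKM in si-Atad2 1 and 2. The summed pocket protein level was 20.3 and 21.3 FPKM in si-ctrl and 20.9 and 20.3 FPKM in si-Atad2.

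The knockdown was visible in the targeted gene. Atad2 was at 34.1 and 36.0 FPKM in si-ctrl 1 and 2 and at 10.1 and 13.0 FPKM in si-Atad2 1 and 2. The log2 ratio, taken within each pair of equally numbered libraries after adding 1 FPKM, was -1.66 and -1.40, with a mean of -1.53 (SE 0.077) and an adjusted p of 1.17e-05 by limma. These are bulk samples, in which fewer cells of a type and less RNA per cell cannot be told apart. All 8 ES markers were tested, with 62.9 FPKM or more in every library, and 0 of 8 passed the threshold. Their log2 ratios lay between -0.25 and 0.088, and 6 of 8 were lower in both pairs, where 34% of all genes were. At an unadjusted p under 0.05 by limma, 3 of 8 were lower and 0 higher, where 16% of all genes passed in either direction. Markers of differentiated lineages, 8 in all, stayed at 2.53 FPKM or less. The 6 fibroblast markers stayed at 6.75 FPKM or less and summed to 9.23 to 10.8 FPKM. Most of that sum was Thy1, at 5.56 to 6.75 FPKM, and Lum was listed at 0. The middle 50% of all genes lay between -0.10 and 0.11 in pair 1 and between -0.086 and 0.060 in pair 2. Log2 ratios of pair 1 went with the GC content of the gene across genes (Spearman's rho -0.28), those of pair 2 less so (0.084), and the difference between the si-ctrl libraries more so (-0.54). These correlations are over 10845 genes, which are not independent replicates. A fit after removal of the GC trend also called 0 of 10 members by limma.

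No member passed the threshold of an adjusted p of 0.05 by limma, either way, on Atad2 knockdown. The background for this count was 1.88% of the genes tested (204 of 10845), with 1.45% higher (157) and 0.433% lower (47). A count of 0 of 10 is close to that background. At an unadjusted p under 0.05 by limma the members also gave 0 of 10, where 16% of all genes (1731) did. The mean log2 ratios of the members lay between -0.11 and 0.11 with a median of -0.022, against -0.0087 over all genes. The 95% intervals by limma ran from -0.27 at the lowest bound, that of E2f5, to 0.33 at the highest, that of Rbl1. The groups did not overlap for 3 of 10 members with si-Atad2 lower (E2f5, Tfdp1 and Rb1), where 26.8% of all genes behaved in this way, and for 1 of 10 with si-Atad2 higher (Rbl2), where 22.1% did. Those shares compare levels across the separately scaled Cuffdiff runs. Rb1 would not be among the 3 lower members with the unassigned transcripts of its locus added, as given below. The number of genes called was 0 with no minimum level (1859 at an unadjusted p under 0.05), 19 with transcripts of all lengths and 1762 without the si-Atad2 2 library, while the members gave 0 calls in each of these except the last, where Rbl1 was called.

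**Figure D2:**
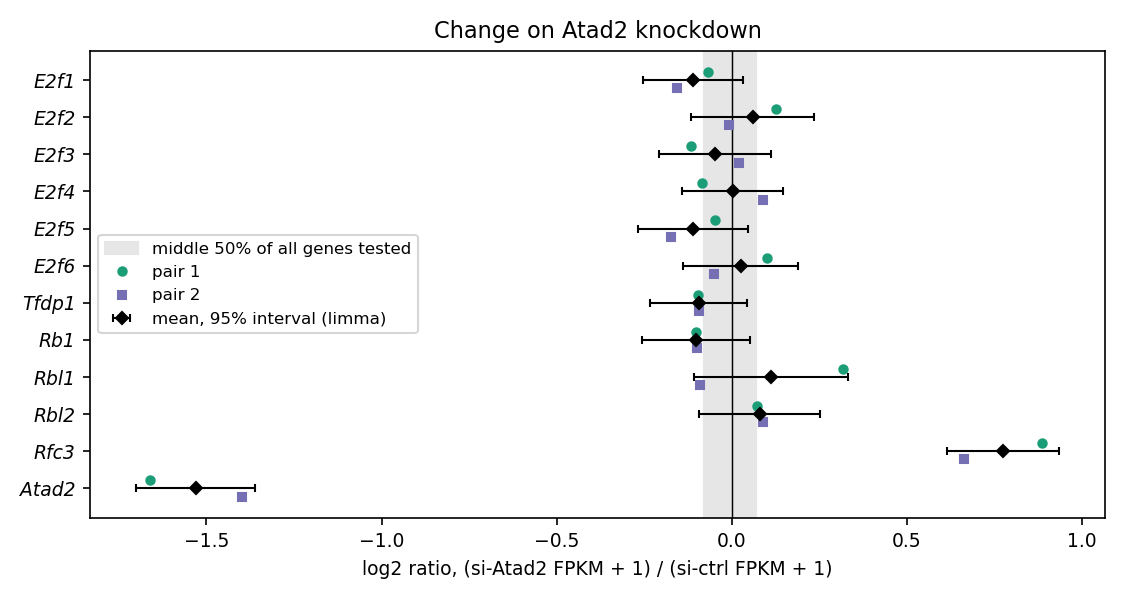
Log2 ratio of si-Atad2 over si-ctrl, each FPKM plus 1, for the 10 members, Rfc3 and Atad2. Circles are pair 1, squares pair 2, and diamonds the mean with its 95% interval by limma, over a grey band that holds the middle 50% of all genes tested. Every member's interval crosses 0, whereas Rfc3 (0.77) and Atad2 (-1.53) are clear of it.

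Gene positions are from the GENCODE annotation vM21 of GRCm38. Of the activating factors, E2f1 (chr2:154559407-154569892, minus strand), which drives entry into S phase, was at 30.1 and 28.3 FPKM in si-ctrl 1 and 2 and at 28.7 and 25.3 FPKM in si-Atad2 1 and 2. The si-Atad2 2 library was the lowest, and the groups overlapped. The log2 ratio of E2f1 was -0.11 (SE 0.065, adjusted p 0.444 by limma), and both pairs were below 0, at -0.066 and -0.16. E2f2 (chr4:136172394-136196057, plus strand), a related activator, was at 4.59 and 4.43 FPKM in si-ctrl and at 5.11 and 4.40 FPKM in si-Atad2. One knockdown library was thus above both controls and the other just below them, and the log2 ratio was 0.060 (SE 0.080, adjusted p 0.771 by limma). E2f3 (chr13:29906575-29986063, minus strand), which also activates S-phase genes and has long and short isoforms, was at 12.4 and 13.2 FPKM in si-ctrl and at 11.3 and 13.4 FPKM in si-Atad2. Both the lowest and the highest value of E2f3 were found in knockdown libraries, and its log2 ratio was -0.047 (SE 0.072, adjusted p 0.806 by limma).

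Of the factors that repress with pocket proteins, E2f4 (chr8:105297663-105305370, plus strand), the most abundant E2F message here, was at 60.6 and 57.4 FPKM in si-ctrl and at 57.1 and 61.2 FPKM in si-Atad2. The pairs moved in opposite directions by nearly the same amount, -0.086 and 0.091, and their mean was 0.0025 (SE 0.065, adjusted p 0.991 by limma). The 95% interval for E2f4 was -0.14 to 0.15. E2f5 (chr3:14578641-14606309, plus strand), the close relative of E2f4, was at 14.1 and 15.0 FPKM in si-ctrl and at 13.6 and 13.2 FPKM in si-Atad2. Both knockdown libraries of E2f5 were below both controls, with log2 ratios of -0.047 and -0.17, a mean of -0.11 (SE 0.071) and an adjusted p of 0.490 by limma. E2f6 (chr12:16810963-16839742, plus strand), the repressor that works without pocket proteins, was at 10.3 and 11.3 FPKM in si-ctrl and at 11.2 and 10.9 FPKM in si-Atad2. Both knockdown values of E2f6 fell between the controls, and the log2 ratio was 0.025 (SE 0.074, adjusted p 0.903 by limma).

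Tfdp1 (chr8:13338751-13378448, plus strand), which encodes the DP1 partner that E2F needs to bind DNA, was at 34.3 and 32.8 FPKM in si-ctrl and at 32.0 and 30.6 FPKM in si-Atad2. Both knockdown libraries lay below both controls by a small margin, and the pairs gave nearly the same log2 ratio, -0.095 and -0.094. The mean had an SE of 0.062 and an adjusted p of 0.503 by limma. The other DP gene, Tfdp2, had no transcript with a valid estimate in all 4 libraries and was not given a level.

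Of the pocket protein genes, Rb1 (chr14:73183673-73325822, minus strand), the retinoblastoma gene, was at 12.2 and 12.7 FPKM in si-ctrl and at 11.3 and 11.8 FPKM in si-Atad2. Both knockdown libraries were below both controls, and both pairs were at -0.10, with an SE of 0.069 and an adjusted p of 0.517 by limma. This level rests on 1 transcript of 4625 bases, in a locus that the tables share with Rcbtb2 and Lpar6. A further 7 transcripts of that locus could not be given to a gene. With these added, the level was 16.9 and 17.1 FPKM in si-ctrl and 17.4 and 17.7 FPKM in si-Atad2, so that the order of the groups turned. Rbl1 (chr2:157145893-157204534, minus strand), which encodes p107 and is itself an E2F target, was at 4.22 and 4.73 FPKM in si-ctrl and at 5.51 and 4.39 FPKM in si-Atad2. Its highest value was in si-Atad2 1 and the pairs disagreed, at 0.32 and -0.090, giving a mean of 0.11 (SE 0.099, adjusted p 0.628 by limma). Without si-Atad2 2, in a fit with no replicate block, Rbl1 passed the threshold (log2 ratio 0.24, adjusted p 0.0343 by limma), and without si-Atad2 1 its ratio was -0.0060. Rbl2 (chr8:91070057-91123844, plus strand), which encodes p130, the pocket protein of resting cells, was at 3.88 and 3.84 FPKM in si-ctrl and at 4.13 and 4.14 FPKM in si-Atad2. Both knockdown libraries of Rbl2 were above both controls, with log2 ratios of 0.072 and 0.088, a mean of 0.080 (SE 0.078) and an adjusted p of 0.674 by limma.

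For most members 1 transcript carried the level. The tables list 25 transcripts of the 10 members, and E2f2, E2f4, E2f5 and Rb1 have 1 each. The main transcript of E2f1, of 2460 bases, held 87.5% to 89.2% of that gene's level in the 4 libraries, and that of E2f3, of 5097 bases, 89.7% to 93.7%. That of E2f6, of 2430 bases, held 71.9% to 78.5%, with a transcript of 2496 bases making up nearly all of the rest. Rbl1 was divided between a transcript of 4883 bases, with 63.3% to 75.3%, and a shorter one of 2381 bases.

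Tfdp1 had the most transcripts, and its main transcript differed more than the gene did. This transcript, of 1698 bases, was at 27.1 and 23.3 FPKM in si-ctrl and at 20.9 and 20.8 FPKM in si-Atad2. The other transcripts with valid estimates summed to 7.21 and 9.49 FPKM in si-ctrl and to 11.2 and 9.88 FPKM in si-Atad2. The main transcript was thus lower in both knockdown libraries and the remainder higher, but the si-ctrl libraries differed from each other by more than si-ctrl 2 differed from either knockdown library. These transcripts overlap, and their division of shared fragments is an estimate by Cuffdiff. A transcript of 1709 bases carried the status LOWDATA in at least 1 library and was left out of the sum, at 1.69 and 2.57 FPKM in si-ctrl and 0.0034 and 1.49 FPKM in si-Atad2. With it included, an alternative chosen after seeing the data, the log2 ratio of Tfdp1 was -0.15 (adjusted p 0.274 by limma).

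**Figure D3:**
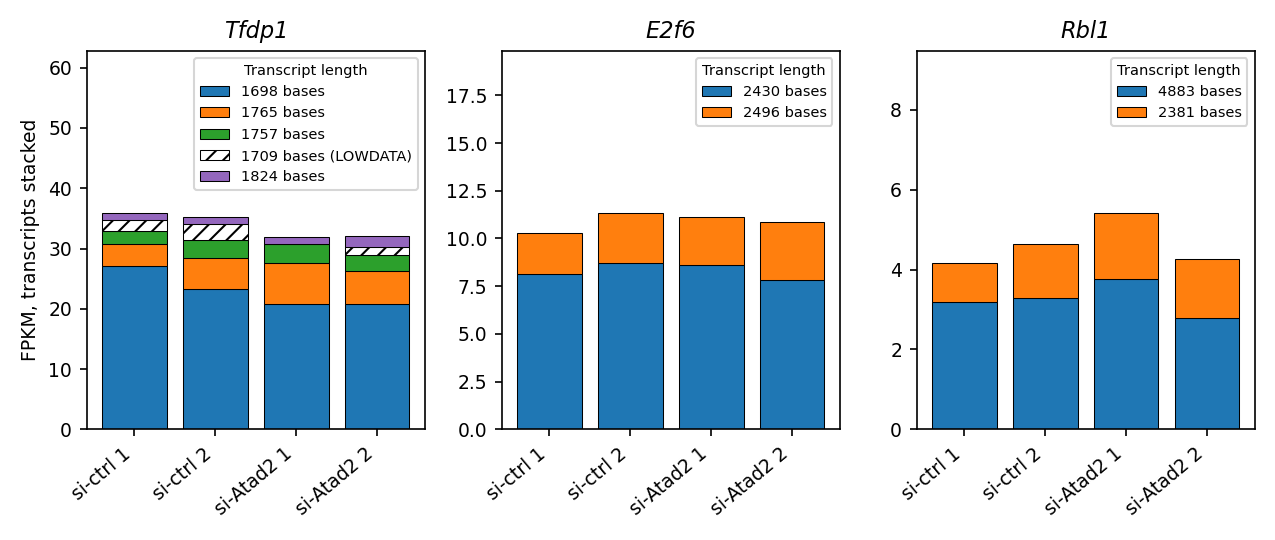
Levels of the transcripts of Tfdp1, E2f6 and Rbl1 in each library, in FPKM, stacked, with the length of each transcript in the key. Transcripts under 0.2 FPKM in every library are not drawn, and the hatched one of Tfdp1 was left out of the gene's level. The 1698-base transcript of Tfdp1 goes from 27.1 and 23.3 FPKM in si-ctrl to 20.9 and 20.8 FPKM in si-Atad2, while the gene as a whole differs by less.

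The authors' own 95% intervals, which cover the estimate in 1 library, give the precision of these levels. For the main transcripts of the 10 members their half-width was 2.51% to 9.25% of the level. Within pair 1 the intervals of si-Atad2 and si-ctrl were apart for 3 of the 10 main transcripts (E2f4 and Tfdp1 lower, Rbl1 higher), and within pair 2 for 4 (E2f1 and E2f5 lower, E2f4 and Rbl2 higher). Only E2f4 was apart in both pairs, and in opposite directions. The main transcript of Rbl2 held 90.9% of the gene's level in si-ctrl 2 and 100% in each other library. Its log2 ratio in pair 2 was 0.20, against 0.088 for the gene as a whole. Between si-ctrl 1 and si-ctrl 2, which had the same treatment, the intervals were apart for 3 (E2f1, E2f4 and Tfdp1). Differences beyond the interval of a single library were therefore as frequent between controls as within pair 1, and less frequent than within pair 2. The si-ctrl libraries come from separately scaled Cuffdiff runs, whereas each pair lies within 1 run, so that these contrasts are not alike.

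The genes around the members were taken from lists by role, and over all genes tested 1.88% passed the threshold. An unadjusted p under 0.05 by limma was found for 16% of all genes. It was found for 2 of 5 Rb kinases, 3 of 6 CDK inhibitors, 0 of 6 DREAM genes and 1 of 6 partners of E2f6. Of the further E2F genes 0 of 2 had it, and of targets 1 of 5 of E2f6, 4 of 40 of G1/S and 3 of 21 of G2/M. Without the si-Atad2 2 library, in a fit with no replicate block, these lists gave 0 to 7 calls each, and the counts with all libraries follow. Of 9 genes for the cyclins and kinases that phosphorylate Rb, 5 were tested and 0 passed the threshold by limma, with a median log2 ratio of -0.038 against -0.0087 over all genes. Ccne1, encoding cyclin E1, had the highest ratio, 0.11, with 101 and 99.9 FPKM in si-ctrl and 110 and 107 FPKM in si-Atad2. Ccnd2, encoding cyclin D2, had the lowest, -0.26, with 8.61 and 8.20 FPKM in si-ctrl and 6.82 and 6.86 FPKM in si-Atad2, and an adjusted p of 0.114 by limma. Ccnd1 and Cdk6 were below the minimum level, and Ccne2 and Ccna2 had no transcript that could be named.

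Of 7 genes for inhibitors of these kinases, 6 were tested and 0 passed the threshold by limma (median -0.079). Cdkn1b, encoding p27, had the highest ratio, with 17.6 and 19.9 FPKM in si-ctrl and 26.9 and 22.1 FPKM in si-Atad2. Both knockdown libraries were above both controls and si-Atad2 1 stood farthest, with a log2 ratio of 0.37 (SE 0.094) and an adjusted p of 0.0861 by limma. Its ratio was 0.25 without si-Atad2 1, and 0.50 and past the threshold without si-Atad2 2. Cdkn1c, encoding p57, had the lowest ratio, with 22.4 and 21.1 FPKM in si-ctrl and 18.3 and 16.9 FPKM in si-Atad2. Here the pairs were alike, and the log2 ratio of -0.29 (SE 0.066) had an adjusted p of 0.0541 by limma. It fell below 0.05 in 5 of 16 other fits, at 0.0462 with a pseudocount of 0.1 FPKM, for example.

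The partners of the repressive complexes gave 0 calls by limma as well. Of 7 genes for the DREAM and MuvB complexes, in which E2f4, Rbl1 or Rbl2 sit with the Lin proteins, 6 were tested (median -0.052), from Lin52 at -0.16 to Lin9 at 0.039. Lin9 stood at 8.20 and 9.03 FPKM in si-ctrl and at 8.87 and 8.85 FPKM in si-Atad2. Of 8 genes for the partners of E2f6, 6 were tested (median -0.092), all with a mean ratio below 0, from Ring1 at -0.30 to Mga at -0.0030. Over all genes 53.3% had a mean ratio below 0. Ring1, a Polycomb ubiquitin ligase, was at 3.22 and 3.28 FPKM in si-ctrl and at 2.12 and 2.82 FPKM in si-Atad2, with an adjusted p of 0.138 by limma. Without si-Atad2 1 its ratio was -0.14, and without si-Atad2 2 it was -0.45 and passed the threshold, as did Lin52 at -0.34. Of the further E2F genes, the atypical repressors E2f7 and E2f8, which bind DNA without a DP partner, had ratios of 0.039 and -0.13 with adjusted p of 0.855 and 0.402 by limma.

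Targets of the pathway were counted in the same way. Of 45 E2F target genes of the G1/S transition, most of them for DNA replication, 40 were tested, 1 was higher and 0 were lower by limma, and the median log2 ratio was 0.012. That count is close to the share over all genes, of which 1.45% were higher and 0.433% lower. This list shares E2f1, Rbl1, E2f7, E2f8, Mybl2, Ccne1 and Ccne2 with the lists above. The gene that rose was Rfc3, a subunit of the clamp loader that puts PCNA onto DNA, with 20.1 and 20.7 FPKM in si-ctrl and 38.0 and 33.4 FPKM in si-Atad2. The si-ctrl libraries differed by far less than the groups, and the log2 ratio of 0.77 (SE 0.072, pairs 0.89 and 0.66) had an adjusted p of 0.000724 by limma. The list was chosen with earlier results of these data known, so that the call of Rfc3 may not be independent of that choice. Pcna, the clamp itself, had the lowest ratio of the list, -0.25, with 109 and 97.0 FPKM in si-ctrl and 80.6 and 92.5 FPKM in si-Atad2 and an adjusted p of 0.161 by limma. Of the 40, 10 were higher in both pairs and 10 lower in both, where over all genes 28.4% were higher and 34% lower in both. With transcripts named by length only, 20 genes of the list were tested, Rfc3 was not among them, and the gene called was Ung, a uracil DNA glycosylase named here after its values were seen. Its log2 ratio was then -1.20 (adjusted p 0.0287 by limma) from 1 minor transcript, against 0.036 (adjusted p 0.821) for the gene as a whole. Without si-Atad2 1 the ratio of Pcna was -0.13, and without si-Atad2 2 it was -0.35.

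Of 25 genes of G2 and M, which the DREAM complex represses in resting cells, 21 were tested and 0 passed the threshold by limma (median 0.0050), from Ccnb2, encoding cyclin B2, at -0.21 to the mitotic kinase gene Aurka at 0.25. Aurka was at 44.3 and 44.2 FPKM in si-ctrl and at 49.8 and 55.8 FPKM in si-Atad2, with an adjusted p of 0.0966 by limma. The pairs of Ccnb2 were at -0.39 and -0.024, and without si-Atad2 1 its ratio was -0.0062. Aurka passed the threshold without si-Atad2 1 (0.35) and Ccnb2 without si-Atad2 2 (-0.39). The 5 germ cell genes known to be silenced by E2f6 were all tested, and not all of them were silent in these cells. The level was highest for Tuba3a, at 44.3 and 41.9 FPKM in si-ctrl, and lower for the rest. Whether E2f6 silences these genes here was not tested. Of the 5, 0 passed by limma, and their median log2 ratio was 0.064. Stag3, a meiotic cohesin gene, had the highest ratio of these, 0.27, with 11.1 and 11.6 FPKM in si-ctrl and 14.4 and 13.3 FPKM in si-Atad2 and an adjusted p of 0.101 by limma. Smc1b, another meiotic cohesin gene, had the lowest, -0.098.

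**Figure D4:**
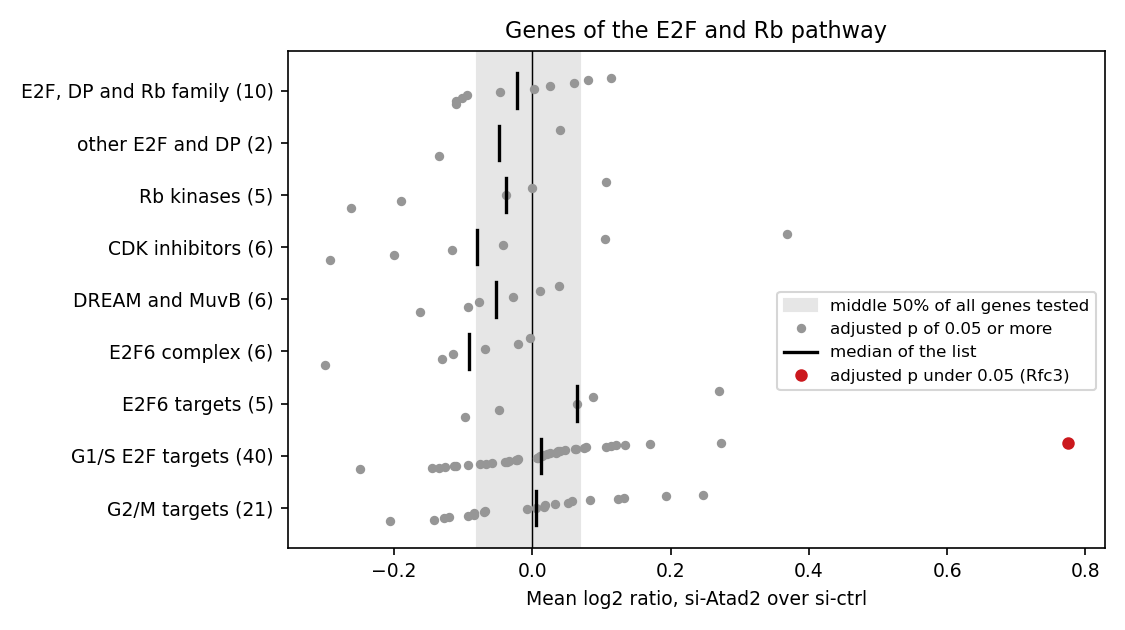
Mean log2 ratio of each tested gene of the lists, with the number tested in parentheses, the median of each list as a black bar, and the middle 50% of all genes tested in grey. Rfc3, in red, is the only gene past the adjusted p threshold of 0.05 by limma, at 0.77, and the list medians lie between -0.092 and 0.064.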

How the data were processed

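RNA-seq of 46C ES cells with the Atad2 TAP tag was analysed in 4 libraries, sequenced with paired ends on a shared lane. The labels gave the condition and the replicate number. Cuffdiff was run by the authors on si-Atad2 1 against si-ctrl 1 and, separately, on si-Atad2 2 against si-ctrl 2, and the deposited FPKM values, with 95% intervals and a status word, are given for 59120 transcripts, each entered as its own gene. The processing notes name TopHat, Cuffdiff and mm9, and the supplement names Bowtie. The scaffold names and positions in the tables are those of mm10 (GRCm38), and versions are not given in the sources used here. No counts are given, and the depth is unknown. The authors' fold changes, p-values and q-values were not used. ChIP-seq was not analysed here.

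Transcripts were named from GENCODE vM21 by a length within 3 bases of an annotated transcript with 80% of its span in the locus (14821), else as the locus's only coding gene (29627), else by the nearest length within 2% with no other gene within 10% (1731). The other 12941 stayed unnamed. Rb1 and Rbl2 were named by the last step. FPKM of transcripts of 200 bases or more with status OK in all 4 libraries were summed per gene. Use of the strand is not stated, so that values of overlapping genes are uncertain.

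Log2 ratios with a pseudocount of 1 FPKM, which understates changes of low genes, were taken within each pair, so that the replicate number is a block. The pairing comes from the authors' runs, which scaled each pair on its own. Across genes, the deviations from the group means correlated with a Pearson r of -0.016 between libraries of equal number. Genes with a mean of at least 1 FPKM were tested with limma (eBayes with a trend, Benjamini-Hochberg adjustment over all genes, threshold 0.05), after the script had been tested on simulated data. The smallest p of a two-sided exact permutation test of 2 against 2 libraries would be 0.333.

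The members and the gene lists were chosen with earlier results of these data known. Named are all members, Atad2, and of each list the genes past the threshold and those with the highest and lowest ratio, with markers as ranges. Tuba3a and Thy1 are named for their levels, after their values were seen. Alternatives were pseudocounts of 0.1 and 5 FPKM, no minimum or a minimum of 5 FPKM, TPM, median of ratios, all transcript lengths, names by length only, no block, no trend, a GC trend removed by lowess, a threshold of 0.1 and leaving out each library. The tools were limma 3.58.1 under R 4.3.3, and pandas 2.3.3, numpy 2.4.6 and matplotlib 3.10.9 under Python 3.11.15.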

Additional observations from a re-analysis of the deposited data

How the results depend on the processing

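The members had 0 calls in the fits run except that without si-Atad2 2. All 10 were tested in each, save 7 with a minimum of 5 FPKM and 6 with names by length only. Over 18 alternatives, 160 of 173 log2 ratios of the members kept the direction reported and, in the fits that gave a test, the side of the threshold. Ratios of single pairs carry no test and were counted by direction alone. The direction was opposite for 12, and the remaining value was that of Rbl1 without si-Atad2 2, at 0.24. Fits that leave out 1 library carry no replicate block, use median of ratios across the separately scaled runs, and assume that the lone library varies like the others. Without 1 si-ctrl library the ratio of E2f3 ran from -0.089 to 0.0074, of E2f4 from -0.025 to 0.043, of E2f6 from -0.034 to 0.097, of Lin9 from -0.022 to 0.11 and of Mga from -0.019 to 0.026. Without 1 si-Atad2 library that of E2f2 ran from -0.012 to 0.14, of E2f3 from -0.17 to 0.085, of E2f4 from -0.054 to 0.072, of Rbl1 from -0.0060 to 0.24, of E2f7 from -0.031 to 0.12, of Lin52 from -0.34 to 0.030 and of Mga from 0.00094 to 0.0059. In the single pairs E2f2 ran from -0.0069 to 0.13, E2f3 from -0.12 to 0.022, E2f4 from -0.086 to 0.091, E2f6 from -0.051 to 0.10, Rbl1 from -0.090 to 0.32, E2f7 from -0.051 to 0.13, Lin9 from -0.025 to 0.10, Mga from -0.032 to 0.026 and Smc1b from -0.25 to 0.055. Changed genes numbered 16 without either si-ctrl library, and 553 and 1762 without si-Atad2 1 and 2. Leaving out a si-Atad2 library gave 0 to 1 members, 0 to 1 Rb kinases, 1 to 3 CDK inhibitors, 0 to 1 DREAM genes, 0 to 2 genes of the E2F6 complex, 0 to 1 E2F6 targets, 1 to 7 G1/S targets and 1 G2/M target in each. Named genes that passed the threshold without si-Atad2 2 but not with all libraries were Rbl1 and, with their ratios, Ccnd2 (-0.27), Cdkn1b (0.50), Cdkn1c (-0.25), Lin52 (-0.34), Ring1 (-0.45), Stag3 (0.32), Pcna (-0.35) and Ccnb2 (-0.39). Without si-Atad2 1 those were Cdkn1c (-0.33) and Aurka (0.35), and the ratios of Cdkn1b, Ring1, Pcna and Ccnb2 were 0.25, -0.14, -0.13 and -0.0062. The cause was not tested.

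The number of changed genes, 204 as reported, was 137 with no replicate block (0 members called), 129 with median of ratios, 19 with all transcript lengths, 32 with names by length only, 417 at a threshold of 0.1 and 0 with no minimum level, where the G1/S list also had 0 and Atad2 (log2 ratio -1.53) had an adjusted p of 0.329 by limma. Median of ratios gave 109 higher and 20 lower, against 157 and 47. CDK inhibitors had 1 call with a pseudocount of 0.1 FPKM, with a minimum of 5 FPKM and with transcripts of any status, the last added after seeing the data. Mga turned to 0.032 with TPM, 0.0034 with median of ratios and 0.024 with names by length only, and Aurka to -0.022 with the latter, under which the 1 call among G1/S targets was Ung, lower, in place of Rfc3. Names by length only moved Tfdp1 to -0.26 and Rbl1 to 0.26, with adjusted p of 0.193 and 0.407 by limma. Rfc3 stayed higher in every fit in which it could be named, with adjusted p from 3.2e-09 to 0.391 by limma, the highest with no minimum level. The depth is unknown, and 2 libraries per condition limit what can be seen to changes larger than the intervals given.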
